A study of Mus musculus with 2 samples.

Results

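The 45 genes described here encode proteins that act in mitosis, and were chosen by name. All 45 symbols were found among the 32285 features that both libraries list. They comprise 6 genes of the cyclin-kinase core, 2 partners of the anaphase-promoting complex, 7 centromere and kinetochore genes, 7 mitotic kinases, 7 kinesins, 6 spindle assembly genes, 2 chromosomal passenger genes, 5 cytokinesis genes, 2 genes of chromosome structure and surface, and Pimreg. Splenic YFP+ regulatory T cells (Tregs) of 7-day-old C57BL/6J mice were profiled in droplets by single-cell RNA sequencing, in 1 WT library and 1 KO (Zfp335fl/flFoxp3-Cre) library. Both genotypes carried Cre recombinase fused to YFP in the Foxp3 locus, and the KO mice carried floxed Zfp335 alleles besides, so deletion is directed to cells that express Foxp3. Viable YFP+ cells were sorted after lysis of red blood cells. The study's supplementary methods add a CD4 gate that the labels do not mention, and the number of mice per library is not given in the sources used here. With 1 library per genotype there was no replicate, no test between genotypes could be run, and every interval covers counting error only, at the 95% level. Each transcript molecule was counted once through its unique molecular identifier (UMI), so levels, given as CPM (UMI counts scaled to the same total in every group of barcodes), do not depend on transcript length.

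In mitosis a cell separates its duplicated chromosomes. Cyclin B with Cdk1 starts the process, kinetochores tie each chromosome to the spindle, and a checkpoint holds back the anaphase-promoting complex until all chromosomes are attached, after which the cell divides by cytokinesis. Transcripts of these genes are low in resting cells and accumulate in G2 and M phase, when FoxM1 and the B-Myb-MuvB complex act on promoters that often hold CCAAT boxes, which bind NF-Y, and the element TTTGAA, known as CHR.

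Promoters are shown because such motifs are shared features that played no part in the choice of the genes. Of the 45 genes, 38 were matched by symbol to RefSeq promoters of GRCm38.p6, each 300 bases long from 250 bases before to 50 bases after a transcription start, which gave 41 promoters. Aurkb, Ccna2, Dlgap5, Kif20a, Pimreg, Spc24 and Tpx2 were not matched. CCAAT, read on both strands (CCAAT or ATTGG), was present in 78.0% of these promoters and in 37.4% of all 32851 promoters of the table. TTTGAA (or TTCAAA on the other strand) was present in 82.9% of them and in 17.9% of all promoters. Both motifs occurred together in 28 of the 41, or 68.3%, and in 6.95% of all promoters. The 81 CCAAT matches had a median position of -68 from the start, with 53 in the last 100 bases before it. The 43 TTTGAA matches had a median position of 3, with 32 within 50 bases of the start on either side. Matches were counted in each of the 41 promoters. Ect2, Prc1 and Cep55 had more than 1 promoter, so a site of these genes can count more than once. A match describes letters and does not show that a factor binds. The promoters printed here belong to the genes with the most UMIs that hold both motifs, and each shows the 250 bases before the start, 5′ to 3′ on the strand of the gene, with both motifs in capitals.
Top2a: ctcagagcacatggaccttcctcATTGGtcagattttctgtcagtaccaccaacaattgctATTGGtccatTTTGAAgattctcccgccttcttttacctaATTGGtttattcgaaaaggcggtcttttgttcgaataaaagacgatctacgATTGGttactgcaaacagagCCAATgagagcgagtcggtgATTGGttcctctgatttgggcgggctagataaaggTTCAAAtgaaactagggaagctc
Mki67: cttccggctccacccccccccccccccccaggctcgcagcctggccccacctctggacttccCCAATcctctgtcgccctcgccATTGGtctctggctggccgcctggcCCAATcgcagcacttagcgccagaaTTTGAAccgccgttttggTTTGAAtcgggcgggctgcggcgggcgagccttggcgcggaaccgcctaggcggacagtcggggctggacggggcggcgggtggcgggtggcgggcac
Ube2c: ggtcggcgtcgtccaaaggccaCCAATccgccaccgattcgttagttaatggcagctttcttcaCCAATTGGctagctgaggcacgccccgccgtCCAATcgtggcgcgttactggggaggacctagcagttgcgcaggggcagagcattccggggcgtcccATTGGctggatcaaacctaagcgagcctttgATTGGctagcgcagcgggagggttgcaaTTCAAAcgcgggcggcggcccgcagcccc
The Top2a sequence lies at chr11:99024190-99024439 on the minus strand and holds 6 CCAAT and 2 TTTGAA matches. That of Mki67 lies at chr7:135716380-135716629 on the minus strand and holds 3 CCAAT and 2 TTTGAA matches. That of Ube2c lies at chr2:164769679-164769928 on the plus strand and holds 6 CCAAT matches, of which a CCAAT and an ATTGG overlap, and 1 TTTGAA match.

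Once barcodes under 300 genes or over 5% mitochondrial UMIs had been removed, 8053 WT and 13767 KO barcodes remained, with medians of 5061 and 2713 UMIs. The libraries shared 70 barcode sequences, 29 of which passed the filters. Zfp335, the deleted gene, had 435 UMIs (8.03 CPM) in WT and 58 (1.01 CPM) in KO, a ratio of 0.125 (0.0936 to 0.165). Barcodes were clustered without the 45 genes, into 15 clusters. T barcodes with at least 1000 UMIs were then thinned at random to 1000 UMIs and called cycling if 10 or more of these came from 69 classing genes, mostly of S phase and the histones, none of them among the 45. This class held 1219 of 6374 WT T barcodes, 19.1% (18.2 to 20.1), and 1262 of 7253 in KO, 17.4% (16.5 to 18.3). The difference was -1.72 percentage points (-3.03 to -0.43). The class is a range of a continuous count, and 649 WT and 603 KO barcodes lay near its limit. Inside cluster 3 the order was reversed, with 37.9% of WT and 50.3% of KO barcodes cycling, and with T barcodes chosen by marker CPM alone the difference was 2.32 points. Its interval included 0 without doublets, at -1.29 points (-2.62 to 0.0418), with a limit 2 UMIs higher, at -1.09 points (-2.30 to 0.106), and without histone genes in the classing list, at -1.05 points (-2.56 to 0.462). All 10 T-lineage and all 7 Treg markers had UMIs in the cycling class of both libraries. T-lineage markers summed to 6649.5 CPM in WT and 6779 CPM in KO, and Treg markers to 1418 and 1581 CPM. The T clusters were chosen by T-lineage marker level, so these values are no independent check of the class. All 14 erythroid, 12 neutrophil and 8 myeloid progenitor markers also had UMIs in the cycling class of both libraries.

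The cycling T barcodes of WT and KO came from different clusters. In WT, 636 of 1219 (52.2%) belonged to cluster 8, with Gzmb, Cxcr3 and Klrg1 among its leading genes, 231 (18.9%) to cluster 3 and 198 (16.2%) to cluster 4. In KO, 1123 of 1262 (89.0%) belonged to cluster 3, whose leading genes included Phlda3 and Cdkn1a, known targets of p53. With 1 library per genotype, a cluster held mostly by 1 library may be a feature of that library. Levels are therefore given over all cycling T barcodes and within cluster 3, where both libraries had over 200 cycling T barcodes.

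The mitosis genes were several-fold higher in cycling than in non-cycling T barcodes of both genotypes. Their summed level in WT was 6988 CPM (6948 to 7029) in cycling and 1037 CPM (1026 to 1049) in non-cycling barcodes, a ratio of 6.74 (6.65 to 6.82). In KO it was 7479.8 CPM (7432 to 7528) and 1052 CPM (1041 to 1064), a ratio of 7.11 (7.02 to 7.20). All 45 genes were over 1.5-fold higher in cycling barcodes of each library, as were 10.8% of the 11212 genes with at least 50 UMIs in WT and 11.5% of 10792 in KO. The 45 genes had a median log2 ratio of 2.85 in WT and 2.86 in KO, beside -0.15 and -0.05 over all genes. The classes were cut on other cell cycle genes of the same barcodes, so these ratios describe how closely the mitosis genes went with the classing genes. Those were not confined to S phase and the histones. They included Smc2, Smc4, Cks2 and Hmgb2, the last at 3523 CPM in cycling WT barcodes. With the class set by cluster, the ratios of the summed level were 3.91 in WT and 2.05 in KO. Only cluster 8 then counted as cycling, with 758 WT and 36 KO barcodes.

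The genes separated the classes to different degrees. Nusap1, which bundles spindle microtubules, was 271 CPM in cycling and 21.0 CPM in non-cycling WT barcodes (12.9-fold), and 327 and 27.9 CPM in KO (11.7-fold). In WT the 5 highest cycling to non-cycling ratios were those of Nusap1 (12.9), Prc1 (12.8), Anln (11.3), Kif4 (11.0) and Spc25 (10.9), and in KO those of Anln (12.0), Nusap1 (11.7), Spc25 (11.0), Kif4 (11.0) and Aurkb (10.4). Among these, Prc1 bundles microtubules of the central spindle and Anln is the actin-binding scaffold of the cleavage furrow. Knstrn, a kinetochore and spindle protein, had the lowest ratio in both, with 78.1 CPM in cycling and 25.5 CPM in non-cycling WT barcodes (3.06-fold) and 62.0 and 17.6 CPM in KO (3.51-fold). Next lowest were Cenpa (3.50), Ccnb2 (3.87), Ccnb1 (5.05) and Cdkn3 (5.10) in WT and Cenpa (3.59), Cdc20 (4.20), Dlgap5 (4.32) and Ccnb2 (4.46) in KO. Cenpa, the histone H3 variant of centromeres, was among these in both libraries.

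Levels spanned a wide range within cycling T barcodes. Top2a, the topoisomerase that untangles sister chromatids, was the most abundant at 744 CPM in WT and 1058 CPM in KO, and Prr11 the least at 15.7 and 12.7 CPM. The median gene stood at 89.0 CPM in WT and 96.6 CPM in KO. Top2a, Mki67, Birc5, Ube2c and Cdca8 together held 38.8% of the UMIs of the 45 genes in WT and 40.6% in KO. The order of levels was alike in the genotypes, with a Spearman correlation of 0.974 across the 45 genes, which share their libraries and are not independent.

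**Figure D1:**
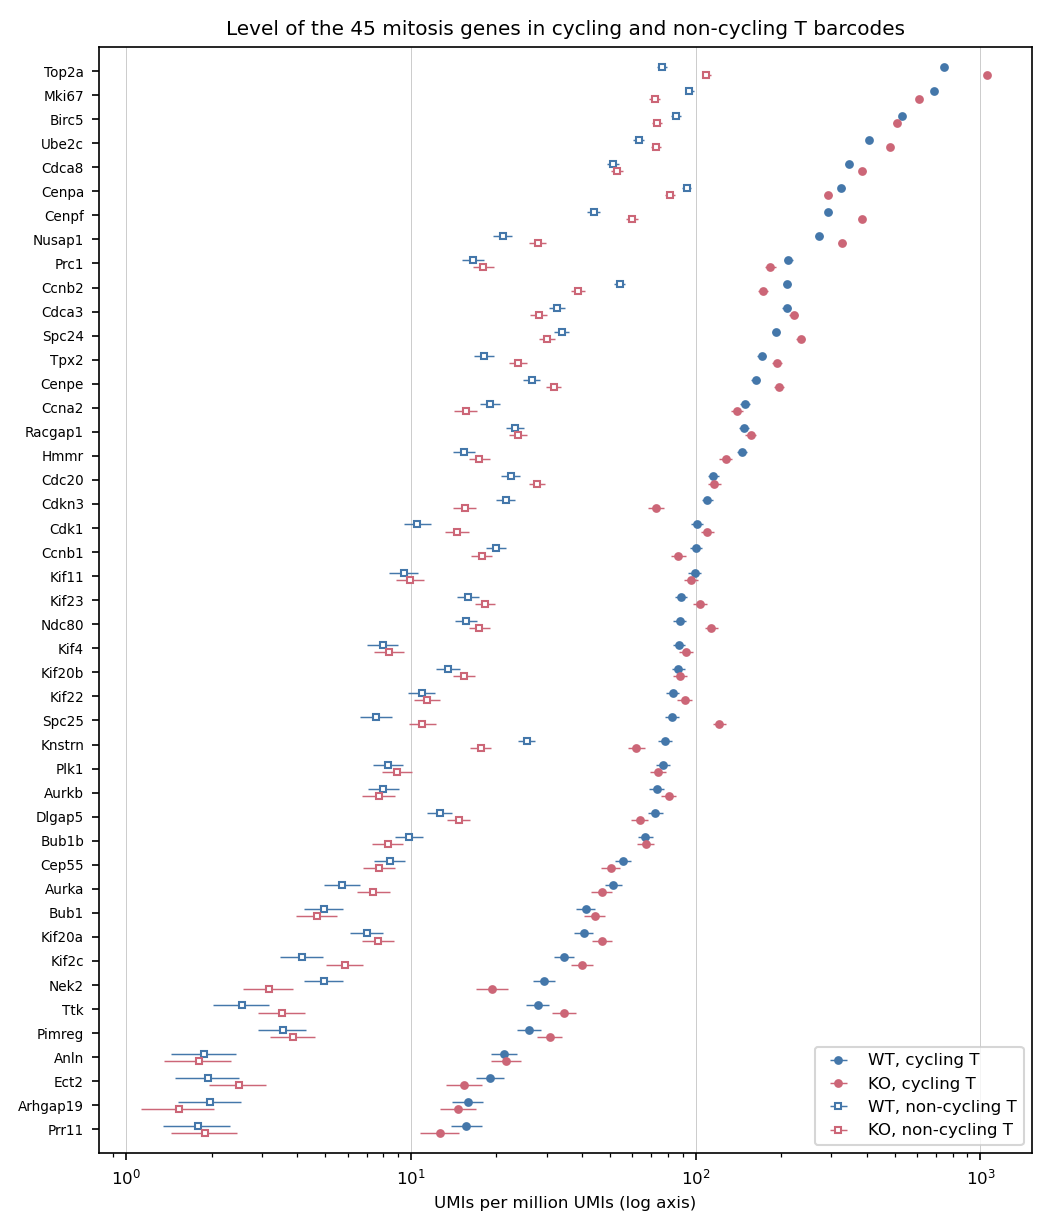
CPM (log axis) of each of the 45 mitosis genes in cycling T barcodes (filled circles) and non-cycling T barcodes (open squares) of the WT and KO libraries, with exact Poisson 95% intervals that cover counting error only. Every gene lies higher in cycling barcodes of both libraries, from Prr11 at 15.7 CPM to Top2a at 744 CPM in cycling WT barcodes.

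At equal depth the UMIs of these genes were spread unevenly over the cycling barcodes. Of 1000 UMIs per barcode, a mean of 6.81 in WT and 7.82 in KO came from the 45 genes, with medians of 5 and 7. In WT 26.9% of cycling barcodes (24.4 to 29.5) and in KO 35.6% (32.9 to 38.3) had 10 or more. At least 1 such UMI was found in 93.7% and 92.3%, and before thinning, at median depths of 11894 and 8338 UMIs, in 99.7% and 99.6%. KO thus had the larger share of barcodes rich in these UMIs, while the intervals of the thinned shares with any, 92.2 to 95.0 and 90.7 to 93.7, overlapped.

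Single genes were detected in a smaller part of the cycling barcodes. Top2a was found at 1000 UMIs in 41.2% (38.4 to 44.0) of WT and 56.5% (53.7 to 59.3) of KO cycling barcodes, against 9.09% and 10.3% of B cell-like barcodes, and unthinned in 82.0% and 89.5% of cycling ones. Mki67 was found in 41.1% (38.3 to 43.9) and 39.6% (36.9 to 42.4) of cycling barcodes, and Spc25, a subunit of the Ndc80 complex, in 5.50% (4.28 to 6.93) and 11.5% (9.78 to 13.4). The intervals of Top2a and of Spc25 did not overlap between the 2 libraries, and those of Mki67 did. They cover counting error only and do not measure the spread between mice. Within cluster 3 the level of Top2a was lower in KO (ratio 0.821, 0.788 to 0.855). The interval of Spc25 included 1 there (1.08, 0.947 to 1.24). In T barcodes that did not reach the limit such UMIs were rarer. Non-cycling T barcodes carried a mean of 0.905 UMIs of the 45 genes in WT and 0.939 in KO, and 51.1% and 49.1% had at least 1 (93.4% and 89.5% before thinning), from median depths of 5185 and 4176 UMIs. B cell-like barcodes, of which 1 of 44 in WT and 1 of 29 in KO reached the limit, had shares of 54.5% and 55.2%, from median depths of 3176 and 2819 UMIs. The B cell-like intervals were wide, 38.8 to 69.6% in WT and 35.7 to 73.6% in KO, and enclosed the non-cycling T shares. So few barcodes cannot tell whether the non-cycling T shares stood above a background. The non-cycling class was not uniform. The mean went from 0.514 UMIs of the 45 genes at 0 classing UMIs to 2.19 at 9 in WT, and from 0.567 to 2.74 in KO. With 10 or more UMIs of the 45 genes there were 17 of 5155 WT (0.330%, 0.192 to 0.527) and 55 of 5991 KO non-cycling barcodes (0.918%, 0.692 to 1.19).

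**Figure D2:**
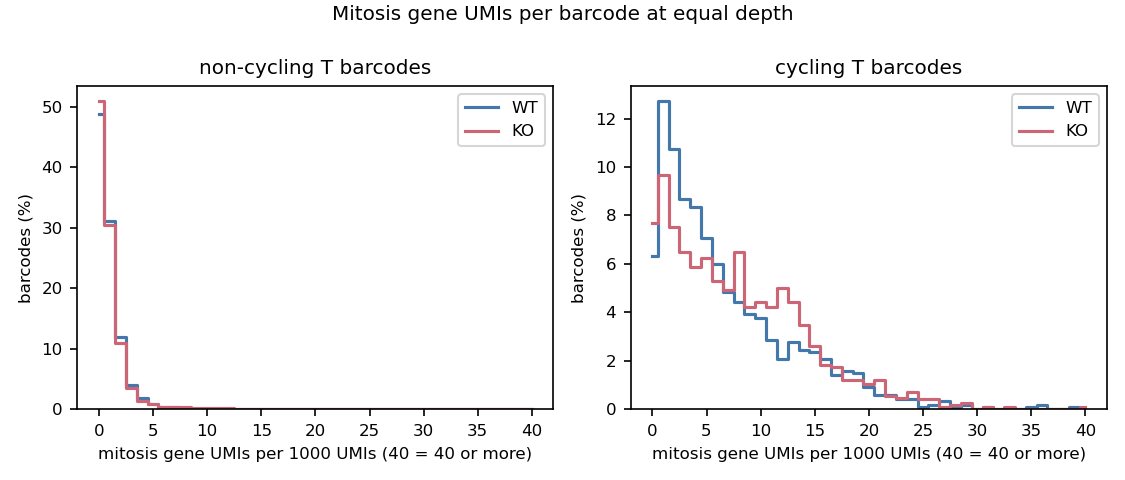
Share of barcodes (%) by the number of UMIs of the 45 genes among 1000 UMIs per barcode, for non-cycling and cycling T barcodes of WT and KO. Non-cycling barcodes lie mostly at 0 to 2 UMIs, whereas cycling barcodes spread to over 20 and KO has the larger share at 10 or more (35.6% against 26.9%).

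Between genotypes, the summed level over all cycling T barcodes was slightly higher in KO (ratio 1.07, 1.06 to 1.08), with genes on both sides. The side depended on which barcodes counted as T and which as cycling. The ratio was 0.979 when T barcodes were chosen by marker CPM alone. It was 0.906 when the cycling class was set by cluster. Only cluster 8 then qualified, with 758 WT and 36 KO barcodes. The 45 genes had a median log2 KO to WT ratio of 0.03, with 26 genes above and 19 below 0, and that of all 10253 genes with at least 50 UMIs was -0.00. Intervals lay above 1 for 19 of the 45 and below 1 for 14, and for 2567 and 2600 of all genes. Past 1.5-fold, 2 genes were lower and 0 higher in KO, whereas 9.61% of all genes were lower and 7.57% higher. Past 2-fold, 0 were lower, beside 4.03% of all genes. The 69 classing genes had a lower summed level in KO, 18794 CPM against 22752 CPM. Most of that difference lay in their 18 histone genes, at 9640.2 CPM in WT and 5934 CPM in KO (ratio 0.616), while the other 51 had a ratio of 0.981. For every 100 UMIs of all 69 classing genes, histone genes included, cycling WT barcodes held 30.7 (30.5 to 30.9) UMIs of the 45 genes. Cycling KO barcodes held 39.8 (39.5 to 40.1). Erythroid markers, all 14 above 0 in both libraries, summed to 502 CPM in WT and 1254 CPM in KO cycling T barcodes, and their part in the result was not tested.

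In the cyclin-kinase core the summed level was 879.5 CPM in WT and 803 CPM in KO (0.913, 0.890 to 0.937). Cdkn3, a phosphatase that acts on cyclin-dependent kinases, was 109.9 CPM (105 to 115) in WT and 72.6 CPM (67.9 to 77.5) in KO, a ratio of 0.660 (0.609 to 0.715). Ccnb2, a B-type cyclin, was 209 CPM in WT and 173 CPM in KO (0.825, 0.781 to 0.871). Over all cycling T barcodes the 3 cyclins and Cdkn3 were lower in KO, since Ccnb1, the other B-type cyclin, was 101 and 86.9 CPM (0.863, 0.799 to 0.933) and Ccna2, the cyclin of S and G2 phase, was 149.6 and 140.0 CPM (0.936, 0.880 to 0.996). Their kinase Cdk1 was on the other side at 101 and 110.1 CPM (1.09, 1.01 to 1.17), as was Cdca3 at 209 and 221 CPM (1.06, 1.01 to 1.11). Within cluster 3, which held most KO cycling T barcodes, the intervals of these 4 lower genes included 1, namely those of Ccnb2 (0.979, 0.878 to 1.09), Ccna2 (0.987, 0.874 to 1.12), Ccnb1 (1.16, 0.983 to 1.38) and Cdkn3 (0.852, 0.727 to 1.00).

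The partners of the anaphase-promoting complex summed to 520.4 CPM in WT and 597 CPM in KO (1.15, 1.11 to 1.18). Ube2c, its ubiquitin-conjugating enzyme, was 405 CPM in WT and 481 CPM in KO (1.19, 1.15 to 1.23). Cdc20, which activates the complex, was 115 and 116 CPM (1.01, 0.941 to 1.08), with an interval that includes 1.

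Centromere and kinetochore genes summed to 1220.4 CPM in WT and 1401 CPM in KO (1.15, 1.13 to 1.17), with 5 of 7 higher in KO. Spc25 had the highest ratio of all 45 genes, with 82.7 CPM (78.4 to 87.3) in WT and 121 CPM (115 to 127) in KO, 1.46-fold (1.36 to 1.58). Its partners in the Ndc80 complex, which grips microtubules, were also higher, Ndc80 at 87.8 and 113 CPM (1.29, 1.20 to 1.39) and Spc24 at 192 and 234 CPM (1.22, 1.16 to 1.28). Cenpf, a large protein of the outer kinetochore, was 293 and 382 CPM (1.31, 1.26 to 1.36), and the kinesin Cenpe was 163 and 196 CPM (1.21, 1.14 to 1.28). Both other genes of this group were lower in KO, Cenpa at 325 and 292 CPM (0.898, 0.861 to 0.937) and Knstrn at 78.1 and 62.0 CPM (0.793, 0.725 to 0.868).

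The mitotic kinases summed to 366 CPM in WT and 366 CPM in KO (0.999, 0.961 to 1.04), with members apart. Nek2, which separates centrosomes, had the lowest ratio of all 45 genes, with 29.4 CPM (26.8 to 32.1) in WT and 19.3 CPM (17.0 to 21.9) in KO, 0.658 (0.562 to 0.770). Ttk, the checkpoint kinase Mps1, was higher at 27.9 CPM in WT and 34.6 CPM in KO (1.24, 1.09 to 1.42). Plk1, a kinase of mitotic entry and spindle assembly and the most abundant of the group in WT, was 76.8 and 73.8 CPM (0.961, 0.882 to 1.05). Aurkb, the kinase of the chromosomal passenger complex, was 73.0 and 80.4 CPM (1.10, 1.01 to 1.20), and the intervals of Plk1, Aurka, Bub1 and Bub1b included 1, with ratios from 0.910 to 1.07.

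Kinesins summed to 521 CPM in WT and 559 CPM in KO (1.07, 1.04 to 1.11). Kif11, the motor that pushes spindle poles apart, was 99.1 CPM in WT and 96.6 CPM in KO (0.974, 0.903 to 1.05). Kif23, a motor of the central spindle, was 89.0 and 104 CPM (1.17, 1.08 to 1.26). Kif20a, Kif2c and Kif22 also had intervals above 1, with ratios from 1.10 to 1.16, whereas those of Kif11, Kif20b and Kif4 included 1. No kinesin had an interval below 1 over all cycling T barcodes. Within cluster 3 those of Kif20b (0.665), Kif11 (0.671), Kif23 (0.726), Kif4 (0.783), Kif2c (0.787) and Kif20a (0.811) lay below 1, and that of Kif22 (0.941) included 1. This was not particular to kinesins, since the intervals of Mki67, Top2a, Cenpf and Ndc80, among others, also lay below 1 there.

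Spindle assembly genes summed to 887 CPM in WT and 907 CPM in KO (1.02, 0.997 to 1.05), and were 2 higher and 4 lower. Nusap1 was 271 and 327 CPM (1.20, 1.15 to 1.26), and Tpx2, the activator of Aurora A, was 170.5 and 193 CPM (1.13, 1.07 to 1.20). Prc1 was lower at 212 and 183 CPM (0.864, 0.820 to 0.912), as were Hmmr (0.875, 0.820 to 0.932), Dlgap5 (0.882, 0.805 to 0.965) and Prr11 at 15.7 and 12.7 CPM (0.808, 0.658 to 0.989). The chromosomal passenger genes, which correct faulty attachments, summed to 876 CPM in WT and 893 CPM in KO (1.02, 0.994 to 1.04). Birc5, or survivin, was 532 and 508 CPM (0.955, 0.924 to 0.986), and Cdca8, or borealin, was 345 and 385 CPM (1.12, 1.07 to 1.16).

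Cytokinesis genes summed to 260.1 CPM in WT and 258 CPM in KO (0.992, 0.947 to 1.04). Ect2, an exchange factor that acts at the cleavage site, was 18.9 and 15.4 CPM (0.813, 0.676 to 0.977). Racgap1, its partner, was 148 and 156 CPM (1.05, 0.9904 to 1.12), and the intervals of Anln, Cep55 and Arhgap19 also included 1. Pimreg was 26.0 CPM in WT and 30.7 CPM in KO (1.18, 1.03 to 1.36). The genes of chromosome structure and surface lay on opposite sides. Top2a was 744 CPM (731 to 758) in WT and 1058 CPM (1040.4 to 1077) in KO, 1.42-fold (1.39 to 1.46), whereas Mki67, which coats mitotic chromosomes, was 687 CPM (674 to 699.7) and 606 CPM (593 to 620.1), 0.883 (0.857 to 0.909).

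Within cluster 3 most ratios were below 1. Its 231 WT and 1123 KO cycling T barcodes had median depths of 8619 and 8752 UMIs and summed levels of 9123 CPM in WT and 7701 CPM in KO (ratio 0.844, 0.831 to 0.857). The 45 genes had a median log2 ratio of -0.24, beside -0.04 over 9032 genes, and 39 genes were below 0. Past 1.5-fold, 6 genes were lower and 0 higher in KO, whereas 11.1% of all genes were lower and 6.4% higher. Prr11 was 23.6 CPM in WT and 13.0 CPM in KO (0.549, 0.398 to 0.768), and Mki67 was 1097 and 616 CPM (0.562, 0.537 to 0.589). The others past this fold were Nek2 (0.615), Prc1 (0.650), Anln (0.653) and Kif20b (0.665). Top2a, higher in KO over all cycling barcodes, was lower here at 1335 and 1096 CPM (0.821, 0.788 to 0.855), as were Cenpf at 493 and 396 CPM (0.804, 0.752 to 0.860) and Ndc80 at 146 and 117 CPM (0.806, 0.713 to 0.913). The highest ratios were those of Ccnb1 (1.16), Cdca8 (1.14), Spc25 (1.08), Ube2c (1.08) and Spc24 (1.06). Of the 19 genes with an interval above 1 over all cycling T barcodes, 9 had one below 1 within cluster 3, namely Cenpe, Cenpf, Kif20a, Kif23, Kif2c, Ndc80, Nusap1, Top2a and Ttk, and 2 one above 1, Cdca8 and Ube2c. Of the 14 below 1, 7 were also below 1 within cluster 3, namely Dlgap5, Hmmr, Knstrn, Mki67, Nek2, Prc1 and Prr11, and the intervals of the other 7 included 1. These tallies were not made over all genes, so they do not set the 45 apart from other genes.

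In cluster 8 the summed level was 7057 CPM in WT and 6074 CPM in KO (ratio 0.861, 0.831 to 0.891), from 636 WT but only 30 KO barcodes. The classing genes were also lower in KO in these clusters, with ratios of 0.753 in cluster 3 and 0.757 in cluster 8. For every 100 classing UMIs, the 45 genes had 35.9 (35.4 to 36.5) UMIs in WT and 40.3 (39.97 to 40.6) in KO of cluster 3, and 28.9 (28.6 to 29.1) and 32.8 (31.6 to 34.1) in cluster 8.

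**Figure D3:**
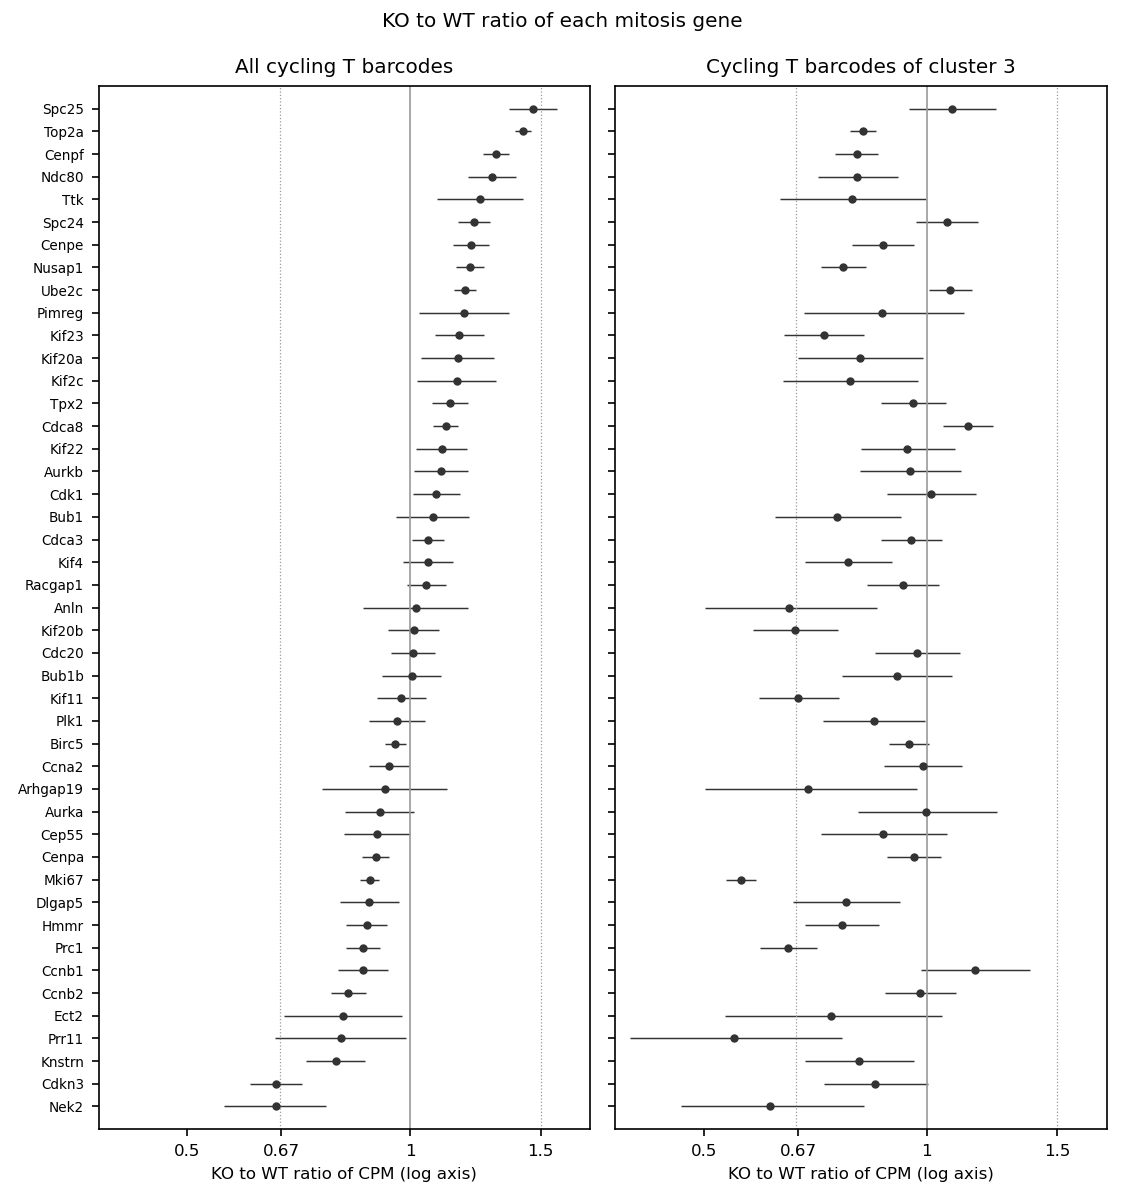
KO to WT ratio of CPM (log axis) for each mitosis gene with exact conditional binomial 95% intervals that cover counting error only, over all cycling T barcodes (1219 WT and 1262 KO) and over those of cluster 3 (231 WT and 1123 KO). Dotted lines mark 1.5-fold in each direction. Over all cycling barcodes the ratios run from Nek2 (0.658) to Spc25 (1.46), whereas 39 of 45 genes lie below 1 in cluster 3.

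The position of a cycling barcode late in the cycle was read from 50 other mitosis genes, none of them among the 45, as their UMIs per 1000. Of the cycling barcodes, 17.7% (15.6 to 19.98) in WT and 14.4% (12.5 to 16.5) in KO had 0 such UMIs, and 13.9% (12.0 to 16.0) and 17.2% (15.2 to 19.4) had 6 or more. Over the bins of 0, 1 to 2, 3 to 5 and 6 or more, the summed level of the 45 genes was 3021, 4967, 8030.4 and 13639.6 CPM in WT and 2607, 5149, 9251 and 13024 CPM in KO. The KO to WT ratios of the bins were 0.863 (0.830 to 0.897), 1.04 (1.02 to 1.05), 1.15 (1.14 to 1.17) and 0.955 (0.939 to 0.971), below 1 in the outer and above 1 in the inner bins. Among the 50 binning genes, Cdc25b and Pttg1 were lower and Psrc1 and Gtse1 higher in KO, and their part in the bins was not tested.

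The genes differed in the ratio of their level in the highest to that in the lowest bin. In WT, Prc1 was 42.7 CPM in the lowest and 498 CPM in the highest bin (11.7-fold), and Pimreg (11.2-fold) and Nusap1 (11.1-fold) came next. Ccnb2 had the lowest such ratio, 1.93, followed by Spc24 (2.12) and Cenpa (2.41). In KO, Anln was highest at 13.9-fold (5.72 to 44.1, from 5 UMIs in the lowest bin), before Pimreg (11.4-fold, from 9 UMIs), Prr11 (10.7-fold, from 4) and Prc1 (10.7-fold, from 56), and Spc24 was lowest (2.52). Ccnb2, lowest in WT, had a ratio of 3.94 in KO.

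Of the 45 genes, 36 had at least 50 UMIs in every bin. Of these, 8 (22.2%) had a ratio below 1 in all 4 bins, namely Ccna2, Ccnb1, Ccnb2, Cdkn3, Dlgap5, Hmmr, Knstrn and Mki67, and 5 (13.9%) a ratio above 1 in all, namely Cenpf, Ndc80, Spc24, Spc25 and Top2a. Among all 6027 such genes the shares were 25.8% and 25.6%. Ccnb2 had its low ratios in the bins below 3 UMIs, with 150.03 CPM in WT and 69.3 CPM in KO (0.462, 0.369 to 0.573) at 0 UMIs of the binning genes, 187 and 121 CPM (0.647, 0.582 to 0.718) at 1 to 2, 224 and 219 CPM (0.979, 0.902 to 1.06) at 3 to 5 and 289 and 273 CPM (0.943, 0.836 to 1.06) at 6 or more. In the highest bins the intervals of Ccnb2 included 1. Cdkn3 had ratios of 0.464, 0.498, 0.795 and 0.663 over the bins. Nek2 had ratios of 0.305, 0.614, 0.738 and 0.634, the first from 35 WT and 8 KO UMIs. Top2a lay on the other side, with 256 CPM in WT and 406 CPM in KO (1.58, 1.41 to 1.78) in the lowest bin and ratios of 1.51, 1.46 and 1.19 in the next, and Spc25 had ratios of 1.7497, 1.502, 1.49 and 1.25. For Ccnb2, Cdkn3, Nek2, Top2a and Spc25 the ratio was nearer to 1 in the highest than in the lowest bin. This did not hold for all genes. The ratio of Ccna2 was 0.993 in the lowest and 0.869 in the highest bin, and that of Prc1 was 0.804 and 0.737.

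**Figure D4:**
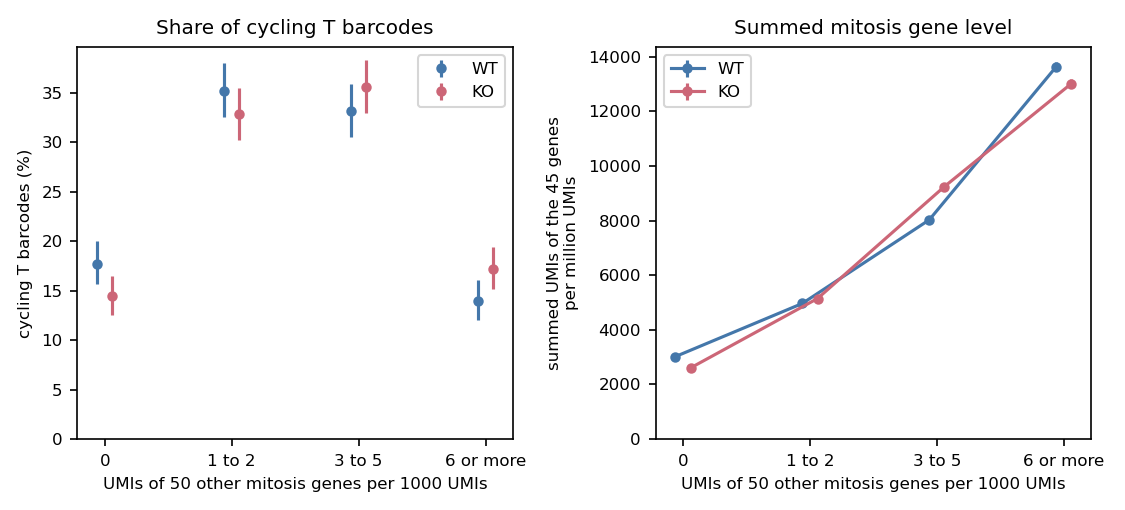
Cycling T barcodes (% of the library's cycling T barcodes, with exact binomial 95% intervals) and summed CPM of the 45 genes (with exact Poisson 95% intervals) by the number of UMIs of 50 other mitosis genes per 1000 UMIs, in WT and KO. The level is higher in each successive bin of both genotypes, from 3021 to 13639.6 CPM in WT and from 2607 to 13024 CPM in KO.

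In non-cycling T barcodes the summed levels of WT and KO were near each other (ratio 1.01, 0.999 to 1.03). B cell-like barcodes were at 994 CPM (859 to 1145) in WT, near the T level, and at 1479 CPM (1252 to 1734) in KO, above it. The 45 genes had a median log2 ratio of 0.08, beside -0.09 over 11505 genes. Past 1.5-fold, 1 gene was lower and 0 higher in KO, whereas 13.1% of all genes were lower and 3.95% higher, and past 2-fold 0 were lower, beside 5.49%. The gene past 1.5-fold was Nek2, at 4.95 CPM in WT and 3.17 CPM in KO (0.641, 0.492 to 0.831). The next lowest ratios were those of Knstrn (0.691), Ccnb2 (0.715), Cdkn3 (0.719) and Mki67 (0.757), and the highest those of Spc25 (1.45), Top2a (1.43), Kif2c (1.41), Ttk (1.38) and Cdk1 (1.38). Nek2, Knstrn and Cdkn3 were also among the 5 lowest and Spc25, Top2a and Ttk among the 5 highest in cycling T barcodes. Intervals were below 1 in both T classes for 8 genes, namely Birc5, Ccna2, Ccnb2, Cdkn3, Cenpa, Knstrn, Mki67 and Nek2. They were above 1 in both for 11, namely Cdk1, Cenpe, Cenpf, Kif23, Kif2c, Nusap1, Spc25, Top2a, Tpx2, Ttk and Ube2c, and on opposite sides for Cdca3, Dlgap5 and Spc24. Of all 10208 genes with enough UMIs in both classes, intervals were below 1 in both for 21.5% and above 1 in both for 16.1%, beside 17.8% and 24.4% of the 45. Both classes come from the same libraries, so neither is a replicate of the other. The sum was uneven over clusters, with 655 CPM in WT and 659.9 CPM in KO in cluster 1 (ratio 1.01, 0.977 to 1.04) but 773 and 1847 CPM in cluster 3 (ratio 2.39, 2.29 to 2.49), where the classing genes had a ratio of 1.27. Within cluster 1, 3 of the 43 genes with at least 50 UMIs were past 1.5-fold lower in KO, beside 10.7% of all genes. These were Nek2 (0.349), Bub1b (0.635) and Anln (0.651). Of the 11 genes with an interval below 1 over all non-cycling barcodes, 4 had one within cluster 1, namely Bub1b, Ccna2, Mki67 and Nek2, and of 14 above 1, 3 did, namely Cenpf, Top2a and Ube2c. The intervals of the rest included 1 there, with ratios such as Knstrn (1.07), Cdkn3 (1.04), Ccnb2 (0.992) and Spc25 (1.05). Cluster 1 held 6431 WT and 13254 KO UMIs of the 45 genes, against 32456 and 32159 over the class, so its intervals were wider. This tally was not made over all genes. With the cycling class set by cluster, the KO to WT ratio of the sum in the other T barcodes was 1.73. Only cluster 8 counted as cycling in that setting. The other T barcodes thus included the 1123 KO and 231 WT barcodes of cluster 3 that the classing count calls cycling.

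Other genes of the pathway were read from lists beside the 45. Of 50 other mitosis genes in cycling T barcodes, 2 were past 1.5-fold lower and 1 higher in KO, with a median log2 ratio of 0.12. Cdc25b, the phosphatase that activates Cdk1, was 128 CPM in WT and 79.1 CPM in KO (0.617, 0.571 to 0.666), and Pttg1, or securin, was 60.1 and 38.6 CPM (0.642, 0.575 to 0.717). Psrc1, a spindle protein, was higher at 4.96 and 15.2 CPM (3.07, 2.35 to 4.03), and Gtse1 at 11.0 and 15.2 CPM (1.37, 1.11 to 1.69). In non-cycling T barcodes 48 of the 50 had enough UMIs, 1 lower and 3 higher past 1.5-fold, with a median of 0.11, the lowest ratios being those of Cdc25b (0.463) and Fbxo5 (0.822) and the highest those of Gtse1 (2.64) and Psrc1 (3.62). The third gene past 1.5-fold higher was Kifc1, a minus-end-directed spindle motor, at 6.26 and 12.9 CPM (2.05, 1.73 to 2.45). Cdc25b, Gtse1 and Psrc1 thus stood at the ends of the list in both classes.

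Of 22 transcriptional regulators of mitosis genes, 21 had enough UMIs in cycling T barcodes, with a median log2 ratio of -0.03, 1 lower and 0 higher past 1.5-fold. Rbl2, or p130, the pocket protein that represses cell cycle genes in resting cells, was 38.9 CPM in WT and 20.1 CPM in KO (0.518, 0.446 to 0.601). E2f7 was next lowest (0.693), and Nfyc, a subunit of NF-Y, (1.31) and E2f3 (1.21) were highest. Foxm1 was 30.6 and 33.1 CPM (1.08, 0.947 to 1.23), and Mybl2, which encodes B-Myb, was 36.5 and 27.8 CPM (0.763, 0.667 to 0.873). In non-cycling T barcodes all 22 had enough UMIs, with a median of -0.00 and 1 gene past 1.5-fold each way, Rbl2 (0.523) and E2f1 (1.503), beside Tfdp2 (0.721) and Lin52 (1.31).

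The 22 constitutive genes of the anaphase-promoting complex and the checkpoint had a median log2 ratio of 0.11 in cycling T barcodes, with 0 lower and 2 higher past 1.5-fold. These were Anapc7 at 29.2 CPM in WT and 52.2 CPM in KO (1.79, 1.58 to 2.01) and Anapc11 at 87.0 and 131 CPM (1.5004, 1.40 to 1.61), both subunits of the complex, while Anapc1 (0.734) and Cdc27 (0.770) were lowest. In non-cycling T barcodes the median was 0.03, 0 genes were past 1.5-fold in either direction, and the ratios ran from Anapc4 (0.767) and Anapc1 (0.778) to Spdl1 (1.28) and Mad2l2 (1.30). Of 7 inhibitors of cyclin-dependent kinases, 5 had enough UMIs, with medians of -0.18 in cycling and -0.49 in non-cycling T barcodes. Past 1.5-fold, 0 were lower and 1 higher in cycling and 2 lower and 1 higher in non-cycling T barcodes. Cdkn1a, or p21, was 7.84 CPM in WT and 43.8 CPM in KO (5.58, 4.60 to 6.82) in cycling T barcodes and 6.65 and 38.6 CPM (5.81, 5.01 to 6.76) in non-cycling ones. Cdkn2d was also higher in KO in both (1.38 and 1.41), whereas Cdkn1b (0.795) and Cdkn2c (0.861) were lowest in cycling and Cdkn1c (0.453) and Cdkn2c (0.622) in non-cycling barcodes.

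Barcodes set apart as other lineages also held UMIs of the mitosis genes. They numbered 645 in WT and 6418 in KO, with summed levels of 4567 CPM (4512 to 4622) and 3294 CPM (3265 to 3324) (ratio 0.721, 0.711 to 0.732). The classing genes were at 15295 and 8873 CPM there (ratio 0.580), and their part in the result was not tested. The median log2 ratio was -0.49, beside 0.00 over 10358 genes, and 44 of the 45 genes were below 0. Past 1.5-fold, 16 genes were lower and 1 higher in KO, whereas 17.4% of all genes were lower and 15.7% higher, and past 2-fold 3, namely Arhgap19, Anln and Prc1, were lower, beside 8.96%. Arhgap19, one of the cytokinesis genes, was 18.1 CPM in WT and 5.92 CPM in KO (0.327, 0.243 to 0.439), and Anln (0.471), Prc1 (0.499), Mki67 (0.522) and Ect2 (0.589) followed. Cep55, a protein of the midbody, was higher at 11.8 and 17.9 CPM (1.52, 1.16 to 2.01), and the next highest ratios were those of Pimreg (0.987), Racgap1 (0.975), Ndc80 (0.944) and Kif23 (0.907).

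The makeup of this class differed between the libraries. Clusters 2, 5, 10 and 15, with 107 WT and 5714 KO barcodes, had T-lineage markers near the level of the T clusters (5377 CPM in WT and 6658 CPM in KO) beside leading genes of another lineage, and were set apart as mixed-marker after their values were seen. In them the summed level was 2888 CPM (2642 to 3151) in WT and 2877 CPM (2843 to 2912) in KO (ratio 0.996, 0.912 to 1.09). The other clusters of the class were poor in T-lineage markers, with 1009 CPM in WT and 1503 CPM in KO, and held 538 WT and 704 KO barcodes. In these T-poor lineages the summed level was 4619 CPM in WT and 4064 CPM in KO (ratio 0.880, 0.864 to 0.896), with a median log2 ratio of -0.19 beside -0.12 over 9085 genes. Past 1.5-fold, 2 genes were lower, Arhgap19 (0.509) and Prr11 (0.625), and 0 higher, whereas 8.38% of all genes were lower and 3.37% higher. Kif4 (0.687), Mki67 (0.709) and Kif20b (0.719) were next lowest, and Cep55 (1.25), Ube2c (1.22), Kif23 (1.10), Kif2c (1.05) and Pimreg (1.04) highest. Ube2c, at 319.8 CPM in WT and 389.8 CPM in KO (1.22, 1.14 to 1.30), was the only one of the 45 with an interval above 1 there.

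Among the T-poor lineages, erythroid-like barcodes had the highest level, with 5757 CPM in WT and 4811 CPM in KO (ratio 0.836, 0.816 to 0.856), from 294 and 481 barcodes. Of those with at least 1000 UMIs, 62.6% in WT and 38.7% in KO had 10 or more classing UMIs per 1000, and the part of this in the result was not tested. Myeloid progenitor-like barcodes had 4162 and 3737 CPM (ratio 0.898, 0.870 to 0.927), and neutrophil-like barcodes 3099.9 and 2560.2 CPM (ratio 0.826, 0.776 to 0.879). B cell-like barcodes were lowest, with 994 and 1479 CPM (ratio 1.49, 1.19 to 1.85), from 44 and 30 barcodes. The order of the 45 genes in cycling WT T barcodes resembled that in the WT barcodes of these lineages, with Spearman correlations across genes of 0.961 for erythroid-like, 0.975 for myeloid progenitor-like, 0.947 for neutrophil-like and 0.778 for B cell-like barcodes. Mki67 stood above Top2a in WT erythroid-like barcodes, at 795 and 495 CPM, whereas Top2a stood above Mki67 in cycling WT T barcodes, at 744 and 687 CPM.

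**Figure D5:**
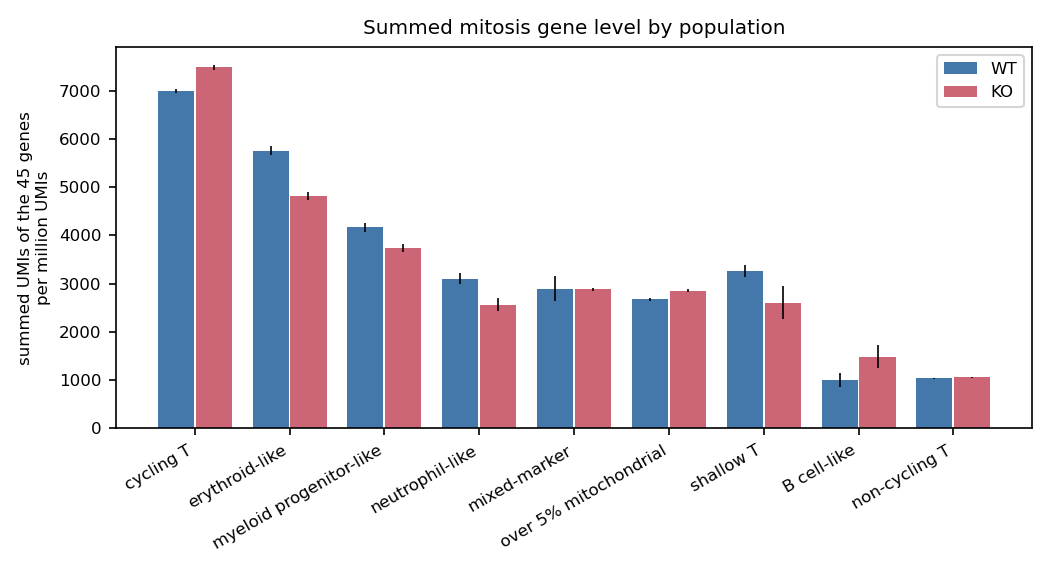
Summed CPM of the 45 mitosis genes by population in the WT and KO libraries (bars from 0), with exact Poisson 95% intervals that cover counting error only. Cycling T barcodes stand highest (6988 and 7479.8 CPM), erythroid-like barcodes next (5757 and 4811 CPM), and non-cycling T barcodes stand at 1037 and 1052 CPM, beside 994 and 1479 CPM in B cell-like ones.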

How the data were processed

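Viable YFP+ cells of the spleen were captured on the 10x Genomics platform, and the authors made the matrices with Cell Ranger 5.0.1 on mm10, according to the submitters' processing notes. The deposited values are raw UMI counts per gene and barcode, and barcodes outside the filters used here were still present. Barcodes under 300 genes or over 5% mitochondrial UMIs were removed, and doublets were left in. Leaving out the 5% of WT and 8% of KO barcodes with the highest Scrublet scores (scanpy 1.11.5) was an alternative.

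Barcodes were scaled to 10000 UMIs and clustered by the Leiden method (igraph 0.11.9) on 2000 variable genes, 30 principal components (scikit-learn 1.9.0) and 20 neighbours at resolution 0.5. The 45 genes, the 50 other mitosis genes, the 69 classing genes, mitochondrial genes and Zfp335 were left out of clustering. So were the sex-linked genes Xist, Tsix, Ddx3y, Eif2s3y, Kdm5d and Uty. Clusters with at least 50% of the median T-lineage marker CPM and fewer than 3 markers of another lineage among 10 leading genes were called T, and 1034 WT and 96 KO T barcodes under 1000 UMIs were set aside. The limit of 10 classing UMIs came from Otsu's method on square roots of the thinned count.

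UMIs were summed per class and library. Ratios carry exact conditional binomial, CPM exact Poisson, shares Clopper-Pearson and differences of shares Newcombe intervals (SciPy 1.17.1). Log2 ratios had 0.5 UMI added, and genes counted against a fold limit needed 50 UMIs over both groups. The scripts were tested on simulated data. The 45 genes and all lists were chosen with earlier results of these data known. In each comparison the 5 highest and 5 lowest ratios and the most abundant gene of each role were named, and of each list the 2 highest and 2 lowest. Other genes were named after their values were seen. Filters, limit, classing list, scaling and clusters were varied.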

Additional observations from a re-analysis of the deposited data

Results flagged for a closer look

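The KO to WT ratio of the summed level of the 45 genes was 1.07 in cycling T barcodes and 0.721 in the other lineages, on opposite sides of 1. The first was 0.979 with T barcodes chosen by marker CPM alone, 0.906 with the cycling class set by cluster and 0.844 within cluster 3, and the second pools mixed-marker barcodes (0.996) with T-poor ones (0.880), which the libraries held in different shares. In cluster 3 the ratio was 0.844 in cycling and 2.39 in non-cycling T barcodes, again on opposite sides. These differences were not tested, since each rests on 1 library per genotype.

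Barcodes over 5% mitochondrial UMIs, used only in the alternative that admits up to 10%, held UMIs of the 45 genes at 2673 CPM in the 6468 WT barcodes and 2854 CPM in the 4364 KO barcodes. Both levels lay between those of non-cycling and cycling T barcodes. So did the level over all kept barcodes, at 3241 CPM in WT and 3010 CPM in KO. Whether the UMIs in barcodes over 5% came from their own cells was not tested.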

How the results depend on the processing

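No paired analysis was possible because there was 1 library per genotype. Alternatives by T markers alone and within single clusters or T-poor clusters were chosen after seeing the data, and the cause of each change was not tested. The choice of barcodes changed the side of some results. The difference in cycling share, -1.72 points, became 2.32 with T barcodes chosen by marker CPM alone, 12.4 within cluster 3 and -11.4 with cycling set by cluster, for which only cluster 8 qualified. Its interval included 0 without doublets (-1.29), with the limit 2 UMIs higher (-1.09) and without histone genes (-1.05). The KO to WT ratio in cycling T barcodes, 1.07, became 0.906 by cluster, 0.979 by marker CPM alone and 0.844 within cluster 3. It was 1.08 with up to 10% mitochondrial UMIs, 1.06 with a limit 1 UMI lower, 1.08 with one 2 UMIs higher, 1.02 without histone genes, and 1.15 both as a mean of single barcodes and on thinned UMIs.

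The ratio in non-cycling T barcodes, 1.01, was 0.978 with up to 10% mitochondrial UMIs, 0.998 without doublets, 1.04 with the higher limit, 0.989 without histone genes, 1.73 by cluster, 1.10 with another seed, 1.04 on thinned UMIs, 1.08 with median-of-ratios scaling and 1.26 by marker CPM alone. That in other lineages, 0.721, was 0.748 without doublets, 0.765 as a mean of single barcodes, 0.805 on thinned UMIs, 0.683 with mitochondrial, haemoglobin and neutrophil genes left out of the total, and 0.880 both by marker CPM alone and in T-poor clusters.

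The cycling to non-cycling ratio in WT, 6.74, was 6.43 with up to 10% mitochondrial UMIs, 6.99 with the lower and 6.38 with the higher limit, 7.21 without histone genes, 3.91 by cluster, 6.93 with another seed, 7.57 as a mean of single barcodes, 7.53 on thinned UMIs and 7.46 with median-of-ratios scaling. In KO it was 7.11, and 7.33 without doublets, 7.26 and 6.65 with the lower and higher limit, 7.44 without histone genes, 2.05 by cluster, 6.76 with another seed, 8.46 as a mean of single barcodes, 8.33 on thinned UMIs, 7.39 with median-of-ratios scaling and 5.22 by marker CPM alone. Cycling barcodes had the higher level under all of these.

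The median log2 ratio in cycling T barcodes was -0.24 within cluster 3, and that of other lineages -0.19 in T-poor clusters. Genes lower in KO numbered 2 in cycling T barcodes, 0 past 2-fold and 6 within cluster 3, 1 in non-cycling T barcodes, 0 past 2-fold and 3 within cluster 1, and 16 in other lineages, 3 past 2-fold and 2 in T-poor clusters.

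The intervals cover counting error alone, and sparse genes such as Nek2 and Arhgap19 had wider ones than Top2a or Mki67.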
